A study of Mus musculus with 12 samples.

Results

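Cholesterol synthesis was followed through 7 named genes, and 6 of them, Idi1, Fdps, Sqle, Lss, Cyp51 and Srebf2, had a value among the 22276 gene symbols measured. The genes were chosen by symbol and not by a cut on their values, but with earlier results of these data known. Hmgcs1 was not analysed here. The study fed male C57BL/6J mice and sequenced RNA from liver, quadriceps muscle and both white (WAT) and brown (BAT) adipose tissue to find the organ in which narciclasine (ncls), a plant alkaloid, acts in diet-induced obesity. Each organ had 1 library in each of 3 groups, 12 libraries in all. NCD-veh mice ate normal chow and received vehicle, HFD-veh mice ate a high-fat diet and received vehicle, and HFD-ncls mice ate the high-fat diet and received ncls. Diets ran from 8 to 17 weeks of age, ncls or vehicle was given from 10 to 17 weeks, and every mouse was 17 weeks old when tissue was taken. Whether a library came from 1 mouse or from a pool is not given in the sources used here.

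With 1 library per group there was no replicate check and no test, so every difference below is between 2 libraries and its error between mice is unknown. Levels are FPKM (fragments per kilobase of transcript scaled to the mapped fragments of the library), which allow genes to be compared per length. Log2 changes are differences in log2(FPKM + 0.1), which understates the change of low genes. A gene was counted as past a fold only if it reached 1 FPKM in at least 1 of the 2 libraries, and the share of all such genes past the same fold is given beside the first count of each comparison. Depth, approximated from the FPKM steps worth 1 fragment, ran from about 18200000 fragments in HFD-ncls WAT to about 25700000 in HFD-veh muscle. Hepatocyte markers were abundant in the liver libraries and fast-twitch markers in the muscle libraries, as the labels state. A trace of liver transcripts was present in HFD-veh muscle and a trace of muscle transcripts in BAT, and their size is given with the results they touch.

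Animal cells build cholesterol from acetyl-CoA through mevalonate, isoprenoid diphosphates, squalene and lanosterol. The liver is a main site of this synthesis. The transcription factor SREBP-2, made from Srebf2, is held in the endoplasmic reticulum by Scap and the Insig proteins when sterols are abundant, and is cut free to switch on the genes of the pathway when they are scarce. The related factor SREBP-1, made from Srebf1, acts mainly on fatty acid synthesis. Of the genes measured, Idi1 encodes the isomerase that interconverts the isoprenoid building blocks, and Fdps joins them into farnesyl diphosphate. Sqle, squalene epoxidase, is a rate-limiting enzyme that oxidizes squalene, Lss closes the ring to lanosterol, and Cyp51 removes a methyl group from lanosterol. None of the 6 genes encodes a lipoprotein receptor, so the uptake of LDL enters only through a separate list of uptake and storage genes.

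On mm9, with positions from the GENCODE annotation, the genes are all protein-coding. Idi1 lies on the plus strand at chr13:8884852-8891641, Lss on the plus strand at chr10:75994333-76019883, and Fdps on the minus strand at chr3:88897514-88905881. Sqle and Srebf2 are both on the plus strand of chromosome 15, at chr15:59146632-59162747 and chr15:81977696-82035806. Cyp51 lies on the minus strand at chr5:4081145-4104746.

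Of the 6 genes, 4 had a promoter among the RefSeq sequences of the later build GRCm38.p6. They are shown because these genes were all higher in the high-fat livers, Srebf2 by the least, and each is given as the 250 bases before the start, 5′ to 3′ on the strand of the gene. Capitals mark a CCAAT box (CCAAT, or ATTGG on the other strand) or a GC box (GGGCGG, or CCGCCC on the other strand), the sites that NF-Y and Sp1 are known to bind beside SREBP. The sequences are Idi1 at chr13:8885356-8885605 on the plus strand, Lss at chr10:76531355-76531604 on the plus strand, Cyp51 at chr5:4104698-4104947 on the minus strand and Srebf2 at chr15:82147019-82147268 on the plus strand.
Idi1: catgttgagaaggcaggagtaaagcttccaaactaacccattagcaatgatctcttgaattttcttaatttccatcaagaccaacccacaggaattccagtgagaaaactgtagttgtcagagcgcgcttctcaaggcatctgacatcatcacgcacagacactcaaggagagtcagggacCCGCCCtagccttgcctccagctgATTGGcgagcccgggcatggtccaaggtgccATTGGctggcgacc
Lss: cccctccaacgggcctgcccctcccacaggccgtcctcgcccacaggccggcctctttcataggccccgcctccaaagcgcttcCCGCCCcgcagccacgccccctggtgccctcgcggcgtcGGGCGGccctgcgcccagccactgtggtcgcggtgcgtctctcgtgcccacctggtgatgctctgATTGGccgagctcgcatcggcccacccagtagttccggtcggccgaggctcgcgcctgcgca
Cyp51: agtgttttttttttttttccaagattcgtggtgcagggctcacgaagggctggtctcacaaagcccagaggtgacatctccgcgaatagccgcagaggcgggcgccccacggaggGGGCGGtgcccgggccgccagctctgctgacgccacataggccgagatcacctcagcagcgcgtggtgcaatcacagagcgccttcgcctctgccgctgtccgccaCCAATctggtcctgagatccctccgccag
Srebf2: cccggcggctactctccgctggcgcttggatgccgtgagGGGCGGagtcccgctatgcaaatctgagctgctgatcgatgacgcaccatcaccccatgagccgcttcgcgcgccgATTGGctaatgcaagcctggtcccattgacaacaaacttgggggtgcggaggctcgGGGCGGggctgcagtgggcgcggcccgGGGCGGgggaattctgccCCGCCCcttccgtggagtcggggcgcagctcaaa

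All 4 sequences held a CCAAT box and a GC box, motifs found in 33.8% and 32.7% of 32851 promoters of the same length. Both strands were searched, and no CCAAT box overlapped a GC box in these 4 sequences. In Idi1 a CCAAT box began 14 bases before the start, and in Lss 62 bases before it. Neither of the searched spellings of the sterol regulatory element, CACCCCAC and TCACNCCAC, which overlap each other in part, occurred in the 4 sequences. They occurred in 2.58% and 1.05% of all promoters. Both are narrow spellings, and other forms of the element were not searched. Across a wider list of cholesterol synthesis enzymes, 14 of 18 measured genes had a promoter sequence, of which 13 held a CCAAT box, 13 held a GC box and 1, Acat2, held CACCCCAC. A match is a run of letters in this window and was not tested as a binding site.

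In liver the 5 enzymes were higher under the high-fat diet, by 2.70-fold to 4.67-fold, while Srebf2 was 1.17-fold higher. Idi1 had 14.5 FPKM in liver on chow (NCD-veh), 67.9 on the high-fat diet with vehicle (HFD-veh) and 73.7 with ncls (HFD-ncls). Fdps, the most abundant of the 6 in liver, had 30.2, 136 and 200 FPKM in the same order. For both genes the chow library stood far below both high-fat libraries. Sqle had 6.37, 19.0 and 28.4 FPKM, and Lss had 3.43, 12 and 15.7. Cyp51 had 13.5 FPKM on chow, 36.5 on the high-fat diet and 37.9 with ncls. For each of the 5 enzymes chow was the lowest library and HFD-ncls the highest. Srebf2 had 8.36, 9.75 and 12.7 FPKM, the same order over a narrower range.

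Set as ratios of HFD-veh to NCD-veh liver, Idi1 was 4.67-fold and Fdps 4.52-fold higher, Lss 3.49-fold, Sqle 2.98-fold and Cyp51 2.70-fold. All 5 enzymes were past 2-fold, as were 2.86% of the 10016 genes compared, and the same 5 were the ones past 1.4-fold, as were 13.3% of all genes. The median log2 change of the 6 genes was 1.67, a fold of 3.17, beside a median of 0.04 over all genes. In whole tissue, more or fewer cells of a type and more or less RNA per cell cannot be told apart. The HFD-veh liver library held a muscle share of 0.0626%, and the median of 1.67 was the same with that share taken off.

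**Figure D1:**
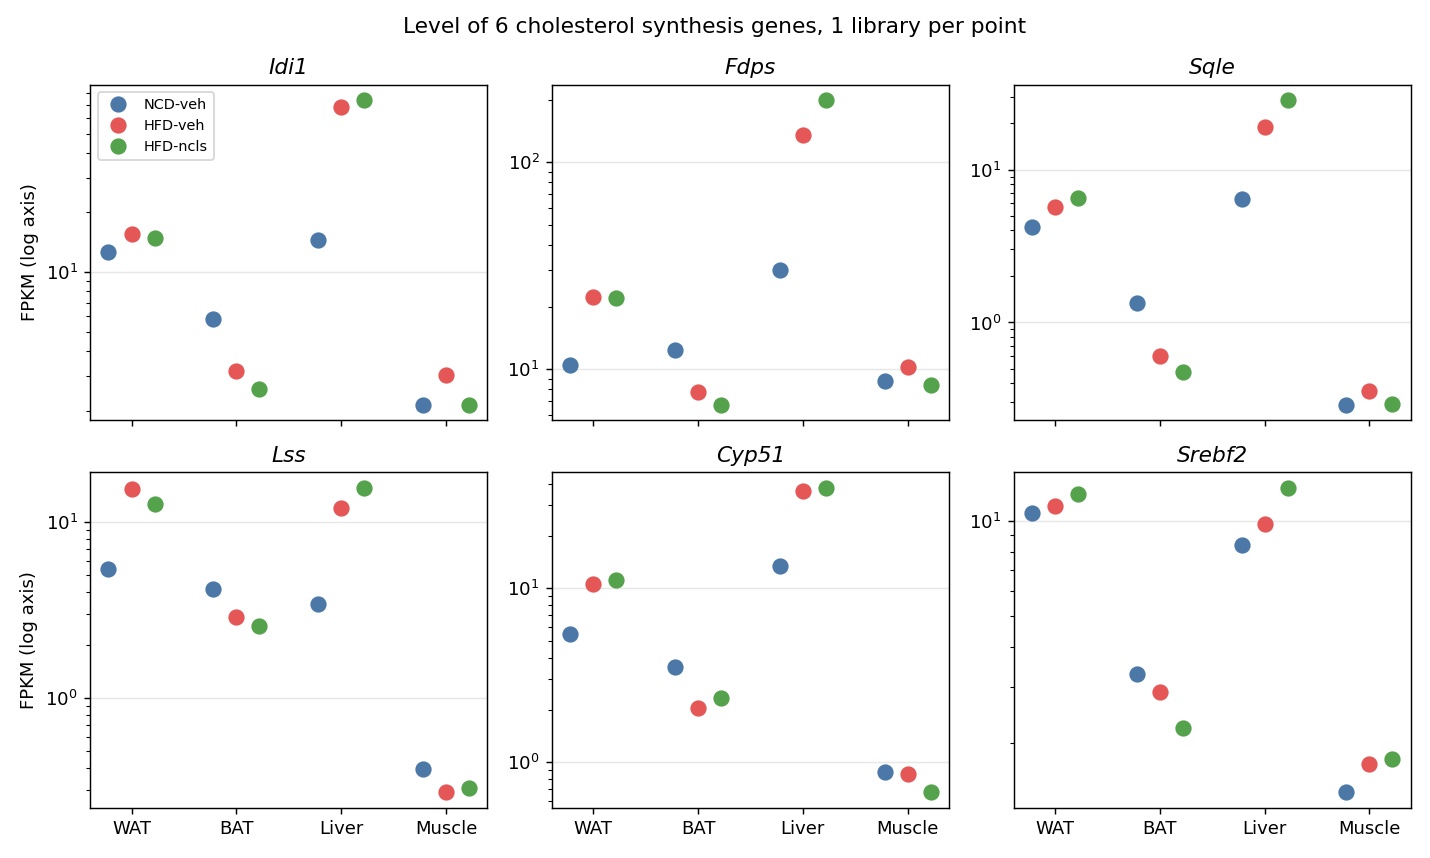
Level of each of the 6 genes in FPKM (vertical log axis, 1 scale per gene) in the 3 libraries of each organ (horizontal axis), with each point 1 library and no error bars because no group was replicated. In liver the chow points lie below both high-fat points for all 6 genes, with Fdps going from 30.2 to 136 and 200 FPKM, and in BAT the chow points are the highest.

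With narciclasine these genes were no closer to the chow level in liver. All 6 were higher in the treated liver library than in the untreated high-fat one, by small ratios. Sqle was 1.5-fold and Fdps 1.46-fold higher, and these 2 were past 1.4-fold, as were 6.88% of the 9956 genes compared. Lss and Srebf2 were each 1.31-fold higher, Idi1 1.09-fold and Cyp51 1.04-fold. The median log2 change was 0.38, beside 0.02 over all genes. This comparison and the diet comparison use the same HFD-veh library, so their values are not independent.

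The 2 end points, HFD-ncls and NCD-veh, do not share that library. Between them Fdps was 6.61-fold higher in HFD-ncls liver, Idi1 5.07-fold, Lss 4.57-fold, Sqle 4.46-fold, Cyp51 2.80-fold and Srebf2 1.52-fold. All 6 were past 1.4-fold, as were 11.5% of the 9961 genes, and the 5 enzymes were past 2-fold, as were 2.58%. The 6 genes had a median log2 change of 2.15, against 0.05 for all genes.

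**Figure D2:**
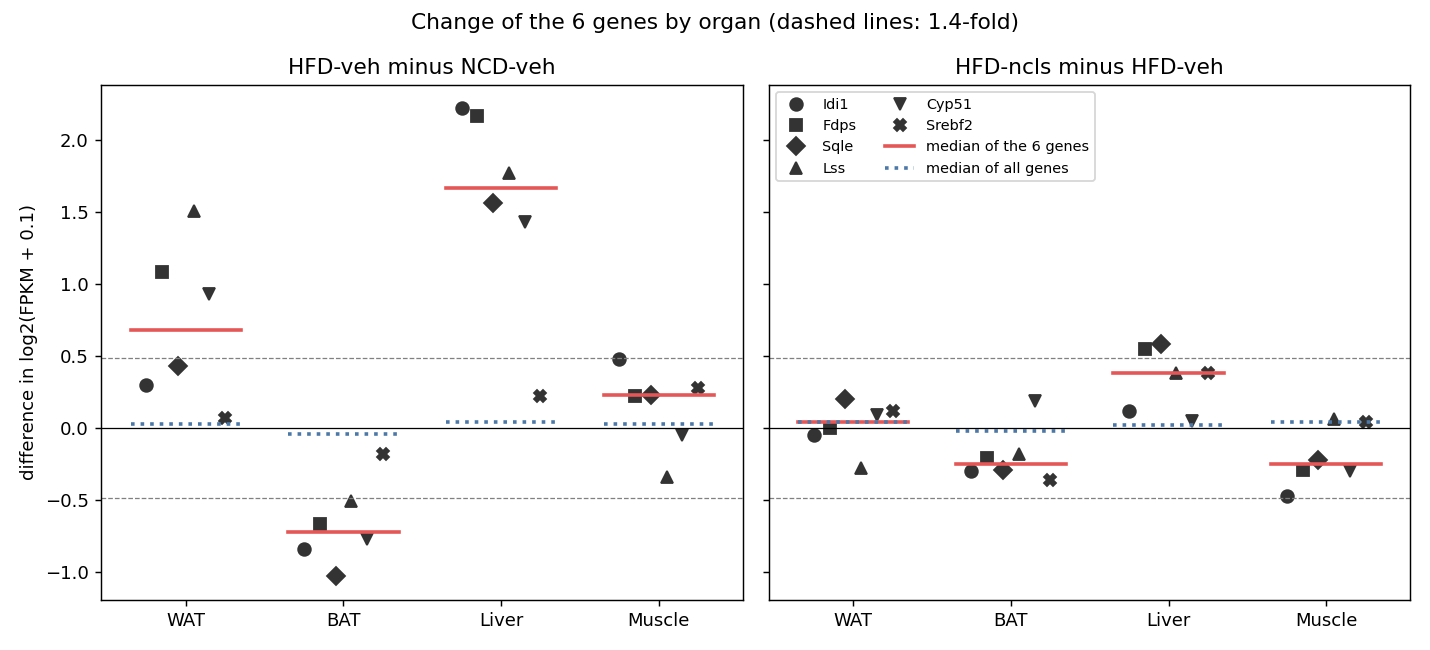
Difference in log2(FPKM + 0.1) of the 6 genes (symbols) by organ, for the diet comparison on the left and the narciclasine comparison on the right; the solid line is their median, the dotted line the median of all genes and the dashed lines mark 1.4-fold. Under the diet the medians were 1.67 in liver, 0.68 in WAT and -0.72 in BAT, and with narciclasine they lay between -0.25 and 0.38.

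The rest of the pathway was described with a list of 18 measured enzymes, 5 of them the genes above. In liver, 15 of the 18 were past 1.4-fold higher with the diet and 13 past 2-fold, with a median log2 change of 1.27. Of the early enzymes, mevalonate kinase Mvk went from 4.38 to 9.05 FPKM and the decarboxylase Mvd from 3.79 to 11.5. Fdft1, which makes squalene and commits farnesyl diphosphate to sterols, went from 16.8 to 35.8. Of the enzymes after lanosterol, the methyl oxidase Msmo1, listed as Sc4mol, went from 24.3 to 117 FPKM, a ratio of 4.8 that was the largest of the list. Nsdhl went from 13.7 to 45.3 and Sc5d from 75.4 to 196. Among the enzymes not past 1.4-fold were Ebp (1.38-fold) and Tm7sf2 (1.18-fold), both acting after lanosterol and at 97.4 and 59.0 FPKM on chow.

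With narciclasine, 6 of the 18 enzymes were past 1.4-fold higher in liver and none was past 1.4-fold lower, with a median log2 change of 0.36. Besides Sqle and Fdps these were Mvd (11.5 to 19.8 FPKM), Dhcr7 (33.7 to 55.5), Pmvk (28.5 to 46.0) and Mvk (9.05 to 13.6). Mvk, Pmvk and Mvd act one after another on mevalonate, and Dhcr7 reduces a late sterol precursor. Sc5d and Hsd17b7 had ratios of 0.925 and 0.911. Against chow, all 18 enzymes were past 1.4-fold higher in HFD-ncls liver, with a median log2 change of 1.57.

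**Figure D3:**
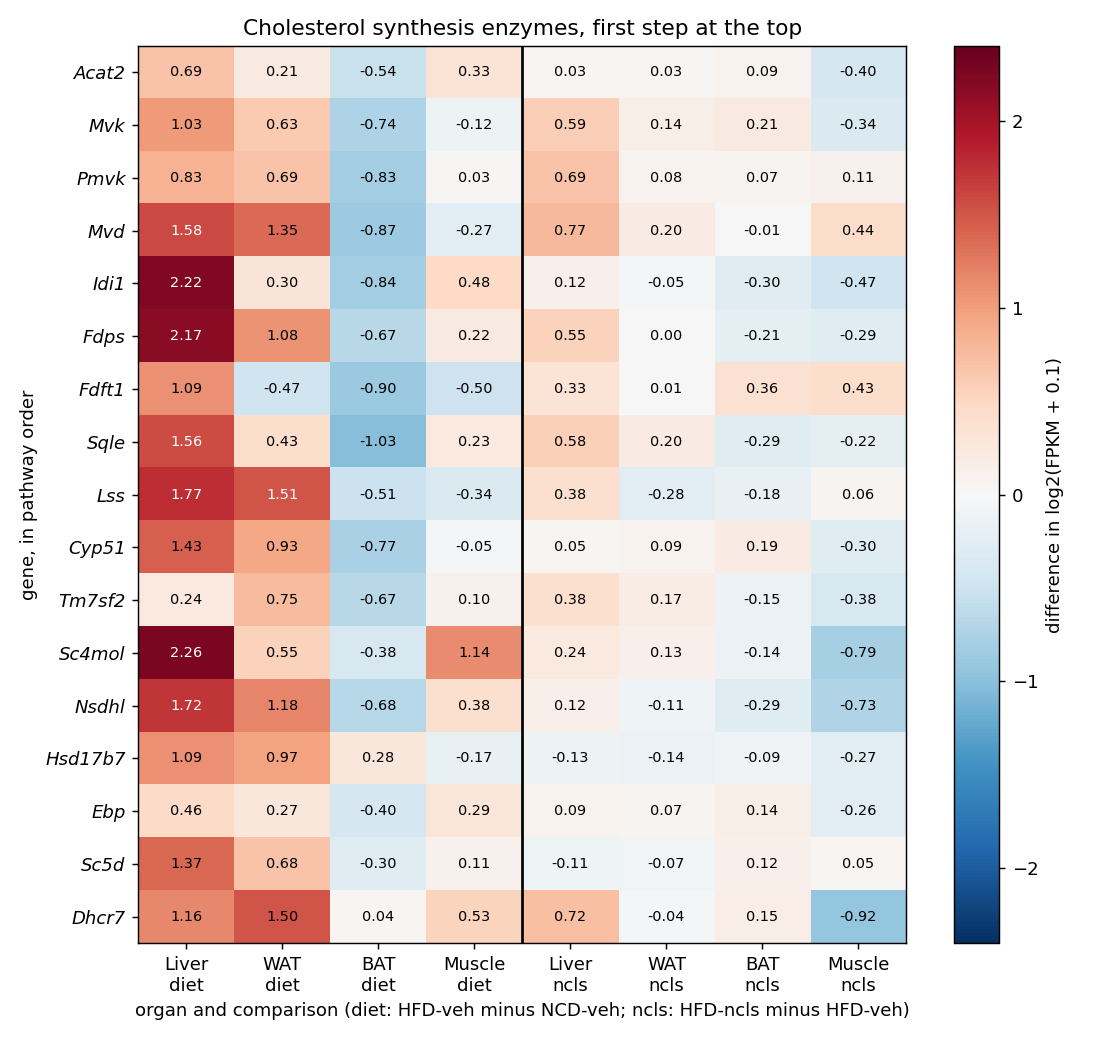
Difference in log2(FPKM + 0.1) for cholesterol synthesis enzymes (rows, in pathway order) in each organ (columns), the diet comparison left of the line and the narciclasine comparison right of it. The liver diet column runs from 0.24 (Tm7sf2) to 2.26 (Sc4mol), the BAT diet column is above 0 for Hsd17b7 (0.28) and Dhcr7 (0.04) and below 0 for the other genes drawn, and the muscle narciclasine column goes down to -0.92 for Dhcr7.

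The sensors of sterol level did not move as a block in liver. Srebf2 itself stayed at 8.36 to 12.7 FPKM, while Srebf1 had 13.3 FPKM on chow, 69.9 on the high-fat diet and 95 with ncls. Insig1, the retention protein whose gene is itself a target of SREBP, had 38.9, 93.5 and 112 FPKM. Its relative Insig2 went the other way, with 94.5, 37.1 and 28.5 FPKM. Of the 7 genes of this list, Srebf1 and Insig1 were past 1.4-fold higher with the diet and Insig2 was past 1.4-fold lower, as were 10.5% of all genes. Scap, the escort of SREBP, had 30.0, 25.2 and 33.7 FPKM. The proteases that cut SREBP, Mbtps1 and Mbtps2, had diet ratios that did not pass 1.4-fold.

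Uptake and storage genes were mixed in liver. Of 11 genes listed, 8 reached 1 FPKM in the diet comparison, and 1 was past 1.4-fold higher and 2 past 1.4-fold lower. Stard4, a sterol carrier, had 4.45 FPKM on chow, 14.6 on the high-fat diet and 6.65 with ncls, highest in the untreated high-fat library and between the other values in the treated one. Its log2 change with narciclasine was -1.12, past 2-fold lower, as were 1.31% of all genes, while 8.07% were past 1.4-fold lower. Scarb1, the HDL receptor, had 91.2 FPKM on chow, 56.8 on the high-fat diet and 69.3 with ncls. Soat2, which esterifies cholesterol for storage, had 16.3, 10.8 and 11.5 FPKM. Lrp1, a remnant receptor, had 54.6, 39.9 and 49.8 FPKM, and Vldlr, the VLDL receptor, had 0.102, 0.356 and 0.0975.

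Idi2, the relative of Idi1, was listed at 0 in 11 of 12 libraries. The enzymes of fatty acid synthesis, a list of 10 genes, stood with the cholesterol enzymes in the liver diet comparison. Of these, 9 were past 2-fold higher, with a median log2 change of 1.5. Fasn, fatty acid synthase, had 11.3, 65.2 and 162 FPKM, and Thrsp, a lipogenic nuclear protein, had 27.4, 887 and 1570. With narciclasine the median of the fatty acid list was 0.18, with 2 genes past 1.4-fold higher and 1 lower.

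In WAT the diet difference had the same sign and was smaller. Lss had 5.39 FPKM on chow, 15.5 on the high-fat diet and 12.7 with ncls. Fdps had 10.5, 22.3 and 22.2 FPKM, and Cyp51 had 5.48, 10.6 and 11.2. Fdps and Cyp51 were at about the same level in both high-fat libraries, and Lss was lower with ncls, at a ratio of 0.822 to HFD-veh. All 3 enzymes were lowest on chow. Sqle had 4.18, 5.68 and 6.56 FPKM, Idi1 12.6, 15.5 and 14.9, and Srebf2 10.6, 11.1 and 12.1, which are narrower ranges. Idi1, the gene with the largest diet ratio in liver, had a ratio of 1.23 in WAT.

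Between HFD-veh and NCD-veh WAT, Lss (2.87-fold), Fdps (2.13-fold) and Cyp51 (1.93-fold) were past 1.4-fold higher, as were 16.3% of the 12208 genes compared. Lss and Fdps were past 2-fold, as were 5.24%. Their median log2 change was 0.68, beside 0.03 over all genes. Of the 18 pathway enzymes, 13 were past 1.4-fold higher, among them Dhcr7 (5 to 14.3 FPKM) and Mvd (2.64 to 6.88), and Fdft1 had 12.8 FPKM on chow and 9.23 on the high-fat diet. Insig1 had 29.5 FPKM on chow, 105 on the high-fat diet and 152 with ncls, and Srebf1 had 61.9, 65.9 and 61.7. In the same libraries the summed level of 7 macrophage markers was 636, 929 and 1170 FPKM and their median 15.2, 52 and 65.2. Most of that sum was Lyz2 (489, 551 and 747 FPKM). The summed level of 8 adipocyte markers was 28581, 20113 and 18492 FPKM and their median 1618, 1081 and 1014. The largest fall was that of Cfd (8163, 653 and 753 FPKM), while Lep and Cidec were higher in both high-fat libraries than on chow. No marker was at 0. The part of these markers in the differences was not tested. Hepatocyte transcripts stood at 0.00127%, 0.0825% and 0.224% of the liver level in these libraries, and with such shares taken off the diet median of the 6 genes was 0.68.

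Narciclasine left the 6 genes of WAT near the HFD-veh level. The ratios ran from 0.822 for Lss to 1.15 for Sqle, with 3 genes higher and 3 lower. No gene of the 6 was past 1.4-fold, where 6.39% of the 12152 genes compared were higher and 1.28% lower, and none of the 18 pathway enzymes was. The median log2 change of the 6 genes was 0.04, equal to that of all genes. Against chow, 4 of the 6 were past 1.4-fold higher in HFD-ncls WAT, as were 19.8% of all genes, with a median log2 change of 0.83.

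In BAT the diet difference had the opposite sign. Sqle had 1.34 FPKM on chow, 0.604 on the high-fat diet and 0.476 with ncls. Idi1 had 5.79, 3.19 and 2.57 FPKM, Fdps 12.4, 7.75 and 6.71, and Lss 4.17, 2.90 and 2.56. Each of these 4 was highest on chow and lowest with ncls. Cyp51 had 3.55, 2.04 and 2.34 FPKM. Srebf2 had 3.29, 2.89 and 2.23 FPKM, again highest on chow.

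All 6 were lower in HFD-veh than in NCD-veh BAT, and 5 were past 1.4-fold lower, as were 8.23% of the 10444 genes compared. Sqle, at a ratio of 0.452, was past 2-fold lower, as were 2.01%. The median log2 change was -0.72, a ratio of 0.606, beside -0.04 for all genes. Across the pathway 12 of 18 enzymes were past 1.4-fold lower and none past 1.4-fold higher, among them Fdft1 (93.0 to 49.7 FPKM), Pmvk (29.6 to 16.6) and Acat2 (55.3 to 38.0). Insig1 had 69.6 FPKM on chow, 32.1 on the high-fat diet and 31.6 with ncls. The 12 fast-twitch markers summed to 2247, 934 and 140 FPKM in the BAT libraries, none at 0. The BAT libraries held muscle transcripts at 1.81% of the muscle level on chow, 0.767% on the high-fat diet and 0.114% with ncls. Taken at that share, muscle accounted for 1.28% of the Fdps level in NCD-veh BAT and for less than that of each other gene of the 6. The summed level of 4 Schwann cell markers was 11.8 FPKM in BAT on chow, 4.16 on the high-fat diet and 3.60 with ncls, with no marker at 0. Its part in the result was not tested.

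With narciclasine, 5 of the 6 genes were lower in BAT and Cyp51 was higher, all within 1.4-fold, where 6.28% of the 10331 genes compared were past 1.4-fold lower. Their median log2 change was -0.25, and over the 18 enzymes it was -0.05. Against chow, all 6 genes were past 1.4-fold lower in HFD-ncls BAT, as were 9.12% of all genes, from a ratio of 0.356 for Sqle to 0.679 for Srebf2. The median was -0.78.

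Muscle had the lowest mean levels of 5 of the 6 genes. Sqle was at 0.289, 0.358 and 0.294 FPKM on chow, the high-fat diet and the high-fat diet with ncls, Lss at 0.393, 0.290 and 0.307, and Cyp51 at 0.886, 0.853 and 0.672. None of these 3 reached 1 FPKM, and they rested on about 31.6 to 86.3 fragments a library. Idi1 had 2.14, 3.03 and 2.15 FPKM, Fdps 8.76, 10.2 and 8.36, and Srebf2 1.4, 1.72 and 1.78. Idi1 and Fdps were both highest in HFD-veh muscle and had similar values in the other 2 libraries. The ratios of Idi1, 1.41 with the diet and 0.711 with narciclasine, lay at the 1.4-fold limit.

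No gene of the 6 was past 1.4-fold in muscle on the log2(FPKM + 0.1) scale, either with the diet, where 7.74% of the 9587 genes compared were higher and 5.52% lower, or with narciclasine, where 8.46% of 9694 were higher and 5.48% lower. The medians were 0.23 and -0.25. Hepatocyte transcripts in HFD-veh muscle stood at 0.548% of their level in HFD-veh liver, and at 0.00239% and 0.00109% in NCD-veh and HFD-ncls muscle. The 12 hepatocyte markers summed to 314 FPKM there, against 1.80 and 0.825, with none of the 12 at 0 in HFD-veh and 1 and 2 at 0 in the others. At that share, liver RNA would make up 29.1% of the Sqle level, 23.5% of Cyp51, 22.7% of Lss, 12.3% of Idi1, 7.32% of Fdps and 3.10% of Srebf2 in that library. With these shares taken off, the medians were -0.01 and 0.06. In the wider list, 3 enzymes were past 1.4-fold higher and 1 lower with the diet, and 4 were lower with narciclasine. Among them Sc4mol had 0.908, 2.12 and 1.19 FPKM, and liver RNA would make up 30.2% of its HFD-veh value.

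Between organs the 6 genes did not share 1 order. As means over the 3 libraries of an organ, Idi1 had 52.0 FPKM in liver, 14.4 in WAT, 3.85 in BAT and 2.44 in muscle. Fdps had 122 in liver, 18.3 in WAT, 9.11 in muscle and 8.97 in BAT. Sqle had 17.9 FPKM in liver, 5.47 in WAT, 0.805 in BAT and 0.314 in muscle, a span of 57.1-fold that was the widest of the 6. Cyp51 had 29.3, 9.09, 2.64 and 0.804 FPKM in the same order of organs, and it was the gene whose organs did not overlap at all. Lss and Srebf2 were instead highest in WAT, at 11.2 and 11.3 FPKM, over liver at 10.4 and 10.3. The libraries of WAT and liver overlapped for Sqle, Idi1, Lss and Srebf2, and those of BAT and muscle for Idi1 and Fdps. Those of liver and BAT overlapped for Lss. For Fdps, WAT and BAT overlapped too, with 10.5 FPKM in NCD-veh WAT and 12.4 in NCD-veh BAT. These overlaps are between ranges over all 3 groups. Within each group liver was above WAT for Sqle and Idi1, and BAT was above muscle for Idi1. On chow, for example, Sqle had 6.37 FPKM in liver and 4.18 in WAT. For the other overlapping pairs named, the order of the organs changed between groups.

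After the mean of each organ was subtracted, the 6 genes followed each other across the 12 libraries to different degrees. The Pearson r of pairs ran from 0.575 for Cyp51 with Srebf2 to 0.961 for Lss with Fdps. Fdps was closest to the mean of the 6 (r = 0.994) and Srebf2 was farthest from it (0.758). The mean itself was -1.16 in liver on chow, 0.41 on the high-fat diet and 0.75 with ncls, so the liver libraries weigh most in these values. They describe libraries that share organs and a diet and carry no test.

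Among 11837 genes with a mean of at least 1 FPKM, the 10 outside the 6 whose centred pattern was most like their mean were Cops7a (r = 0.988), Actg1 (0.974), Wdr18 (0.968), Nsdhl (0.965), Acss2 (0.962), Atp6v1d (0.962), Mmab (0.960), Lrrc28 (0.955), Qdpr (0.954) and Rpn1 (0.951). Nsdhl is an enzyme of the pathway and Acss2 makes acetyl-CoA from acetate. Cops7a had a small range in liver, 24.1, 33.6 and 34.2 FPKM, and its r without centring was -0.552, and it was highest in muscle. Of the 13 other pathway enzymes, 8 were among the 100 most alike, and of the 10 fatty acid genes 3 were, Acss2, Me1 and Fasn. The least alike were Ovgp1 (r = -0.963), Phf21a, Cox6b2, Sox9 and 2310061J03Rik (-0.921). Insig2 ranked 11815 of 11837, with an r of -0.870.

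**Figure D4:**
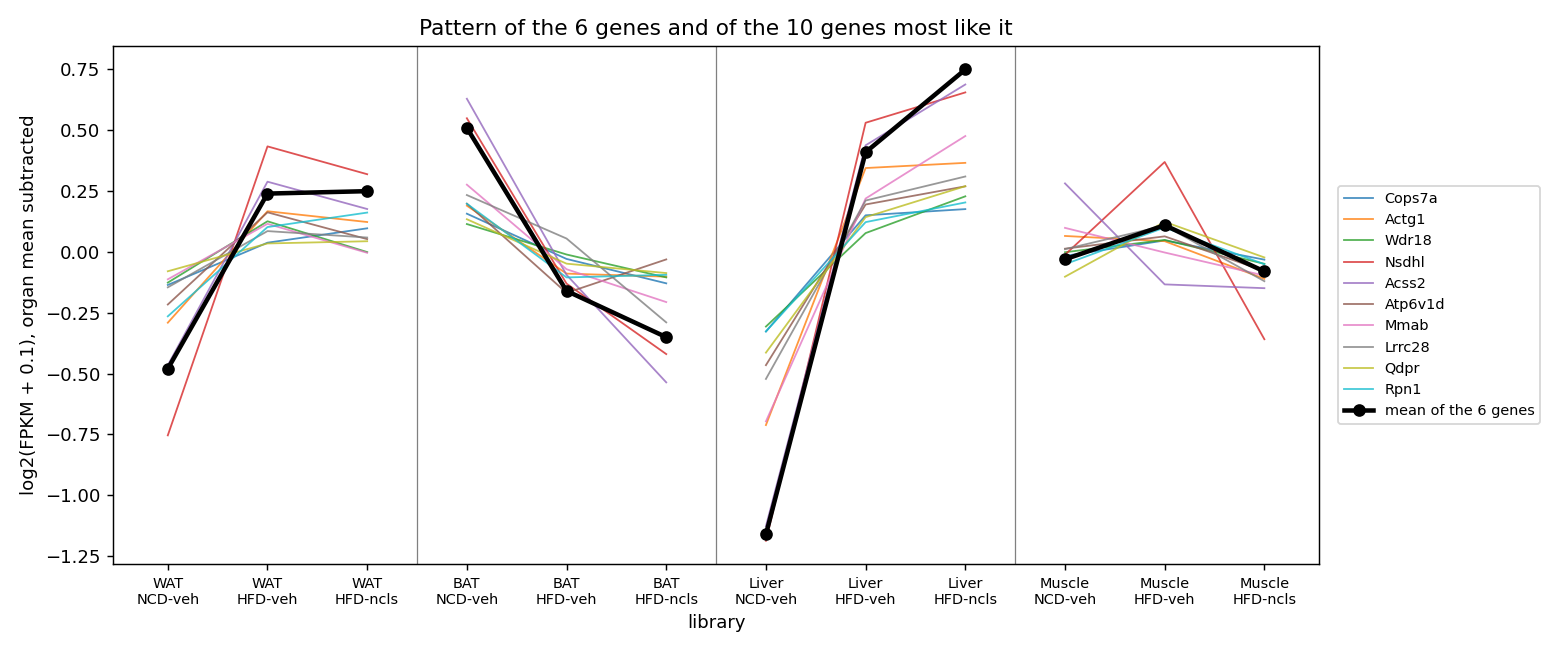
Log2(FPKM + 0.1) with the organ mean subtracted (vertical axis) in each of the 12 libraries (horizontal axis), for the mean of the 6 genes (thick black line) and the 10 genes most like it (thin lines). The mean goes from -1.16 to 0.75 in liver and from 0.51 to -0.35 in BAT, and most of the thin lines have the same shape over a smaller range.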

How the data were processed

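RNA from 12 tissue libraries was sequenced on an Illumina platform. The authors aligned the reads to mm9 with TopHat and deposited FPKM values that Cufflinks computed on RefSeq genes, 1 value per gene symbol and library. The Cufflinks version is not given in the sources used here. FPKM corrects for transcript length and depth, not for composition.

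From these values, log2(FPKM + 0.1) was taken (Python 3.11.15, numpy 2.4.6, pandas 2.3.3) and libraries of 1 organ were subtracted. Counts used the folds 1.4 and 2 and a minimum of 1 FPKM in either library. Medians of the 6 genes were over all of them. Liver and muscle RNA shares were the median, over 12 markers, of a library's level in percent of the level in liver or muscle of the same group. Scripts were tested on simulated data. The genes and lists were chosen with earlier results of these data known. Of the lists other than the synthesis and sensing genes, up to 4 genes with the largest liver change were named for each comparison. Alternatives changed the pseudocount, filter, scaling and RNA shares. Some members of these lists are counted but not reported here by name.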

Additional observations from a re-analysis of the deposited data

Results flagged for a closer look

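The 6 genes moved in opposite directions in different organs under the same comparison, with every gene on 1 side of 0 in each organ named here. With the diet, the median log2 change in WAT exceeded that in BAT by 1.4, and that in liver exceeded BAT by 2.39. Between HFD-ncls and NCD-veh, the median in WAT exceeded that in BAT by 1.61, and that in liver exceeded BAT by 2.93. With 1 library per group these differences between organs were not tested.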

How the results depend on the processing

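Of 252 values obtained under 7 alternatives for 36 results, 242 stayed within 0.2 on the log2 scale or within 1.5 times the count. The other 10 moved and 0 reversed a called direction. A median could count as reversed only if it was past 1.4-fold in the main setting, which no muscle median was. Muscle medians given below changed sign, from main values of 0.23 and -0.25 for the 6 genes and 0.16 and -0.30 for the pathway list. With a minimum of 5 FPKM, 2 genes were past 1.4-fold lower in BAT with the diet and 2 between HFD-ncls and NCD-veh, the median of the latter was -1.01 over 2 genes, and the median of the pathway list in muscle with narciclasine was 0.05 over 3 genes; fewer genes pass that minimum. With a pseudocount of 0.01, 1 gene, Idi1, was past 1.4-fold in muscle, higher with the diet and lower with narciclasine, and rescaling by the median ratio also gave 1 with narciclasine. With RNA shares taken off, the muscle diet medians were -0.01 for the 6 genes and -0.10 for the pathway list, and the narciclasine median of the 6 was 0.06. No paired analysis was possible because each group had 1 library. Error between mice is unknown, and low levels in muscle rest on few fragments.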

Other observations

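The fatty acid synthesis genes had the same sign as the cholesterol genes in BAT. With the diet, 7 of 10 fatty acid genes were past 1.4-fold lower, with a median of -0.79 beside -0.72 for the 6 cholesterol genes. With narciclasine, 5 were past 1.4-fold lower, with a median of -0.65 beside -0.25. Fasn had 705 FPKM in BAT on chow, 348 on the high-fat diet and 171 with ncls, and Acly, which makes acetyl-CoA from citrate, had 101, 54.6 and 22.6. In muscle the fatty acid medians were 0.69 with the diet and -0.74 with narciclasine, beside 0.23 and -0.25, and liver RNA in the HFD-veh library touches both comparisons. In WAT the fatty acid list had a diet median of -0.25, where the 6 cholesterol genes had 0.68. The differences between the lists were not tested.

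Enzymes that lead from farnesyl diphosphate or cholesterol into other products had a diet median of 0.15 in liver. Of the 9 listed, 7 reached 1 FPKM in that comparison. Among these 7, 1 gene, Fntb, was past 1.4-fold higher, as were 13.3% of all genes. Pdss1, which makes the side chain of ubiquinone, had 0.439 FPKM in liver on chow, 0.950 on the high-fat diet and 1.34 with ncls. It was below the 1 FPKM minimum in the diet comparison and was not counted. Fntb, a subunit of farnesyltransferase, had 0.547, 1.09 and 1.26 FPKM, near that minimum. Of 6 genes of sterol efflux and its nuclear receptors, none was past 1.4-fold in liver in either comparison, and Abca1 had 11, 12.1 and 8.74 FPKM.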
